A study of Mus musculus with 13 samples.

Results

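The Runx transcription factors Runx1, Runx2 and Runx3 and their shared partner subunit Cbfb are 4 genes, taken by symbol from the array's gene annotation. Of these 4, Runx1, Runx3 and Cbfb were named there, with 1 row each, among 19505 genes with a symbol. All 3 lay above the array median on 13 of 13 arrays and were among the 10601 genes tested. Runx2 was not named in that annotation, and its signal was not analysed here.

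Runx proteins bind DNA through their Runt domain, and Cbfb, which does not contact DNA itself, raises that binding and stabilises the complex. In blood formation, Runx1 is needed for blood stem cells to arise in the embryo and later for megakaryocyte, B cell and T cell development. Runx3 is known for its part in cytotoxic T cells, natural killer cells and other lymphoid and myeloid cells, and Runx2 directs bone formation by osteoblasts. Mutation or fusion of RUNX1 and fusion of CBFB are recurrent in human myeloid leukaemia.

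Whole bone marrow RNA was measured on 13 Affymetrix arrays in 3 groups of mice. LSK cells, a marrow fraction enriched in stem and progenitor cells, came from Cas9 knock-in mice and received guide RNAs, and 24 h later they went into C57Bl/6J mice irradiated with 7 Gy. BRSST+sgEzh2 (4 arrays) had the submitters' guide combination BRSST and a guide named for Ezh2, which encodes the enzyme subunit of the Polycomb complex PRC2. BRSST+sgLuc (5 arrays) had the same combination and the guide sgLuc, and sgLuc (4 arrays) had that guide without BRSST, so Cas9 donor cells, irradiation and transplantation were common to all 3 groups. The genes aimed at by BRSST are not spelled out in the labels, and the sources used here do not say whether any Runx gene or Cbfb is among them. Marrow was taken at signs of leukaemia or after 6 months, and which array belongs to which case is not given, nor are donor and remaining recipient cells told apart. Separate mice are not stated for the arrays of a group, and the p-values describe sample-to-sample spread that may be technical. In the description field, the sample codes run on through both BRSST groups, while sgLuc has a separate run of codes after a gap, and a batch of arrays, if there was one, cannot be told apart from that group.

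Deposited values were log2 signals with array medians from 7.19 to 7.32, and arrays of a group correlated at 0.982 to 0.988 in BRSST+sgEzh2, 0.963 to 0.992 in BRSST+sgLuc and 0.985 to 0.995 in sgLuc. BRSST+sgLuc arrays 2 and 5 were the least alike and arrays 1 and 4 the most alike. Markers of neutrophils, which make up much of the marrow, had a mean log2 signal of 12.52 to 12.76 in BRSST+sgEzh2, 12.43 to 12.59 in BRSST+sgLuc and 12.80 to 12.97 in sgLuc. Ezh2 averaged 8.78 ± 0.50 in BRSST+sgEzh2 (SD, n = 4), 9.82 ± 0.50 in BRSST+sgLuc (n = 5) and 10.35 ± 0.28 in sgLuc (n = 4), and its log2 difference between the first 2 groups was -1.05 ± 0.26 (SE, limma adjusted p = 0.0808). Without BRSST+sgLuc array 5 that difference was -1.21 (adjusted p = 0.0414). The Y-linked genes Uty and Kdm5d were high on 2 of 4, 2 of 5 (arrays 1 and 4) and 4 of 4 arrays of the same groups.

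The 3 Runx genes are related in their control regions as well as in their proteins, and the stretch shown here is the longest one that the RefSeq promoter windows of all 3 (build GRCm38.p6) have in common. It holds the Runx recognition letters AACCACA in tandem, in capitals in each line, which are the letters that Runx proteins are known to bind. Each line is 30 bases, 5′ to 3′ on the gene's strand, and base 1 is the first transcribed base.
Runx1 distal start, chr16:92826025-92826054, minus strand, bases 21 to 50: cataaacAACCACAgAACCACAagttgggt
Runx2, chr17:44814583-44814612, minus strand, bases 16 to 45: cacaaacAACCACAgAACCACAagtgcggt
Runx3 distal start, chr4:135120503-135120532, plus strand, bases -142 to -113: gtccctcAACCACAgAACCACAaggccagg
The 18 shared bases, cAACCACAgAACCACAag, occurred on either strand in 4 of 32851 windows of 300 bases (0.0122%). These were the Runx1, Runx2 and Runx3 windows and that of Gm16225, which covers the same DNA as the Runx3 distal window on the other strand. Searched on both strands (AACCACA or TGTGGTT), the single motif was in 1731 windows (5.27%), and the tandem with any base between the copies was in 5 (0.0152%), of which the fifth was that of Olfr24. In Runx1 and Runx2 the run began at bases 27 and 22, inside the transcript, and in Runx3 at base -136, before the start.

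The bases around these starts show what differs beyond the run. Runx2 alone of the 3 held a further copy of the motif, at base -81, in the 100 bases before its start.
Runx1 distal start, chr16:92826075-92826174, minus strand, bases -100 to -1: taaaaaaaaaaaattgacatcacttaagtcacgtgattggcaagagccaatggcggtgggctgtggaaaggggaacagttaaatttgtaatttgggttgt
Runx2, chr17:44814628-44814727, minus strand, bases -100 to -1: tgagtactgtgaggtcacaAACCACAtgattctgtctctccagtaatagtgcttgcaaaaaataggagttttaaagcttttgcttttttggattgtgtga
Runx3 distal start, chr4:135120468-135120567, plus strand, bases -177 to -78: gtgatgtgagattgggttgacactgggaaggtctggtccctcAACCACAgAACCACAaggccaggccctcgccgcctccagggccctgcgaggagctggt
The proximal windows of Runx1 and Runx3 and the Cbfb window held 0 copies of the single motif. Letters alone do not show binding, and the arrays give 1 value per gene, so the distal and proximal starts of Runx1 or Runx3 were not measured apart.

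Runx1 was lower in BRSST+sgLuc than in sgLuc marrow, with BRSST+sgEzh2 between them. On arrays 1 to 4 of BRSST+sgEzh2 its log2 signal was 10.33, 10.75, 10.31 and 10.51. On arrays 1 to 5 of BRSST+sgLuc it was 9.89, 9.92, 10.41, 9.94 and 10.65. On arrays 1 to 4 of sgLuc it was 10.71, 10.54, 10.59 and 10.69. BRSST+sgLuc fell into 3 arrays below every other array of the series and 2 arrays, 3 and 5, within the range of the other groups, and the sgLuc arrays lay close together. Group means were 10.48 ± 0.20 in BRSST+sgEzh2 (SD, n = 4), 10.16 ± 0.34 in BRSST+sgLuc (n = 5) and 10.63 ± 0.08 in sgLuc (n = 4).

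In BRSST+sgLuc against sgLuc, Runx1 fell by 0.47 ± 0.16 on the log2 scale (SE, 95% interval -0.82 to -0.13), to 72.0% of the sgLuc signal (limma adjusted p = 0.0474), and the groups overlapped through BRSST+sgLuc array 5. In that comparison 11.7% of all tested genes fell and 22.5% passed in either direction, so a fall was common. The call was close to the threshold: with 1 array left out at a time, the log2 difference ran from -0.59 to -0.41, and the limma adjusted p from 0.00716 to 0.119. It passed in 3 of 13 such fits, those without BRSST+sgEzh2 array 2, BRSST+sgLuc array 3 or BRSST+sgLuc array 5. The call was lost without BRSST+sgEzh2 array 1, 3 or 4, BRSST+sgLuc array 1, 2 or 4, or any of the 4 sgLuc arrays. For BRSST+sgEzh2, the log2 difference of Runx1 was 0.32 ± 0.16 against BRSST+sgLuc (95% interval -0.03 to 0.66, limma adjusted p = 0.406) and -0.16 ± 0.17 against sgLuc (-0.52 to 0.20, adjusted p = 0.642). Neither passed, so the order sgLuc, BRSST+sgEzh2, BRSST+sgLuc is separated by the test only at its ends. In bulk marrow, fewer cells that express a gene and less of its RNA per cell cannot be told apart.

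**Figure D1:**
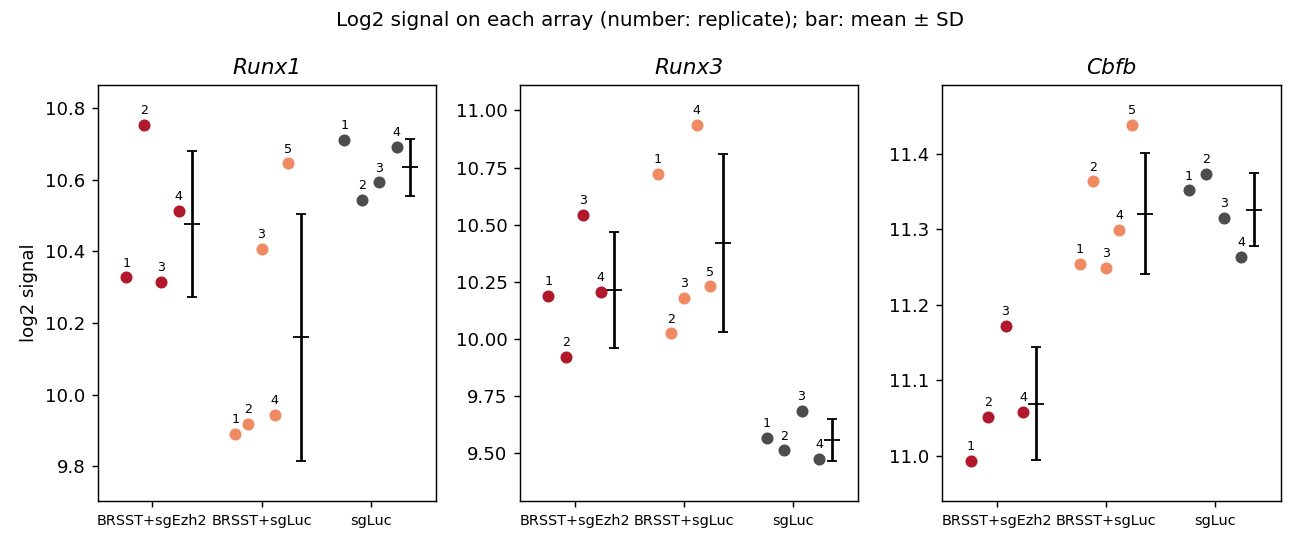
Log2 signal (vertical axis) of Runx1, Runx3 and Cbfb on each of the 13 arrays by group, with the replicate number beside each point and bars for the mean and SD. Every sgLuc array lies below every array of the other groups for Runx3, and every BRSST+sgEzh2 array lies below every array of the other groups for Cbfb.

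Runx3 was higher in both BRSST groups than in sgLuc. Its log2 signal was 10.19, 9.92, 10.54 and 10.20 on arrays 1 to 4 of BRSST+sgEzh2. It was 10.72, 10.02, 10.18, 10.94 and 10.23 on arrays 1 to 5 of BRSST+sgLuc. It was 9.57, 9.51, 9.69 and 9.47 on arrays 1 to 4 of sgLuc. The lowest array with BRSST stood above the highest sgLuc array, and BRSST+sgLuc arrays 1 and 4 were the highest of the series. Means were 10.21 ± 0.26 in BRSST+sgEzh2 (SD, n = 4), 10.42 ± 0.39 in BRSST+sgLuc (n = 5) and 9.56 ± 0.09 in sgLuc (n = 4).

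In BRSST+sgLuc against sgLuc, Runx3 rose by log2 0.86 ± 0.18 (SE, 95% interval 0.47 to 1.25), or 1.81-fold, with limma adjusted p = 0.00458 and no overlap. In this comparison 10.8% of tested genes rose and 18.9% had groups that did not overlap. With 1 array left out at a time, the log2 difference was 0.73 to 0.96, and the call held in 13 of 13 fits (limma adjusted p 0.00187 to 0.0166). In BRSST+sgEzh2 against sgLuc it rose by log2 0.66 ± 0.19 (0.25 to 1.06), or 1.58-fold, with limma adjusted p = 0.0450 and no overlap. There, 9.37% of tested genes passed in either direction, 5.51% rose, 3.86% fell, and 23.3% did not overlap between groups. That call passed in 6 of 13 fits with 1 array left out and was lost without BRSST+sgEzh2 array 1, 3 or 4 or any sgLuc array (log2 0.55 to 0.75 and limma adjusted p 0.0249 to 0.117 over all 13). Both comparisons use the same sgLuc arrays. Between BRSST+sgEzh2 and BRSST+sgLuc the log2 difference of Runx3 was -0.20 ± 0.18 (-0.59 to 0.18, limma adjusted p = 0.671), with overlapping groups.

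**Figure D2:**
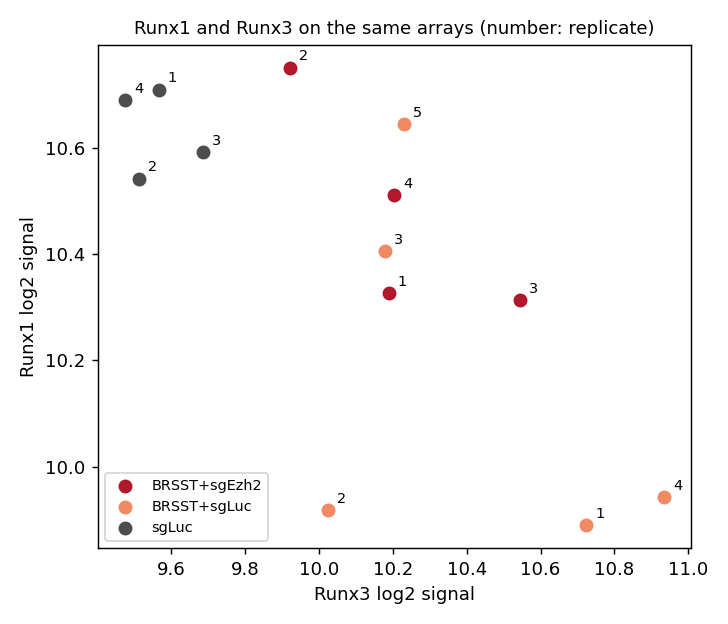
Runx1 log2 signal (vertical axis) against Runx3 log2 signal (horizontal axis) on the 13 arrays, coloured by group and numbered by replicate. The sgLuc arrays lie at the upper left, and BRSST+sgLuc arrays 1 and 4 at the lower right, with Runx3 at 10.72 and 10.94 and Runx1 at 9.89 and 9.94.

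Set side by side on the same arrays, Runx1 and Runx3 moved in opposite directions in BRSST+sgLuc against sgLuc. BRSST+sgLuc arrays 1 and 4, the most alike of that group, had its highest Runx3 and low Runx1 signals, while array 2 was low in Runx1 with the lowest Runx3 of its group. Arrays 1 and 4 are also the 2 of BRSST+sgLuc with high Uty and Kdm5d. Among arrays with high Y-linked signal, the log2 difference of BRSST+sgLuc (n = 2) minus sgLuc (n = 4) was -0.72 for Runx1 and 1.27 for Runx3. Between BRSST+sgEzh2 and BRSST+sgLuc, Runx3 differed by log2 -0.77 among high arrays (n = 2 each) and by 0.23 among low arrays (n = 2 and 3), and Runx1 by 0.62 and 0.09. The direction of the Runx3 difference between those groups thus differed by class, a contrast that was not tested.

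Cbfb was lower on all 4 BRSST+sgEzh2 arrays than on any other array, by a small amount that did not pass. Its log2 signal was 10.99, 11.05, 11.17 and 11.06 on arrays 1 to 4 of BRSST+sgEzh2. It was 11.25, 11.36, 11.25, 11.30 and 11.44 on arrays 1 to 5 of BRSST+sgLuc. It was 11.35, 11.37, 11.32 and 11.26 on arrays 1 to 4 of sgLuc. The 9 arrays without the Ezh2 guide were mixed, with no gap between BRSST+sgLuc and sgLuc. Means were 11.07 ± 0.07 in BRSST+sgEzh2 (SD, n = 4), 11.32 ± 0.08 in BRSST+sgLuc (n = 5) and 11.33 ± 0.05 in sgLuc (n = 4).

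In BRSST+sgEzh2 against BRSST+sgLuc, Cbfb differed by log2 -0.25 ± 0.08 (SE, 95% interval -0.43 to -0.07), at 84.0% of the BRSST+sgLuc signal, with limma adjusted p = 0.203. The groups did not overlap, as was so for 3.53% of tested genes. By limma 0 of the 3 measured members passed, and 1, Cbfb, had an unadjusted p under 0.05, as did 1472 of all 10601 tested genes. Of all tested genes 0.783% passed in this comparison, 0.67% higher and 0.113% lower. Against sgLuc the log2 difference was -0.26 ± 0.09 (-0.45 to -0.06), at 83.7% of the sgLuc signal (limma adjusted p = 0.0915). The groups did not overlap there either, as was so for 23.3% of tested genes. That difference did not pass in any of the 13 fits with 1 array left out (log2 -0.29 to -0.23, adjusted p 0.0649 to 0.211). BRSST+sgLuc and sgLuc differed by log2 -0.005 ± 0.08, with a 95% interval of -0.19 to 0.18 (limma adjusted p = 0.976). Within both Y-linked classes Cbfb was lower in BRSST+sgEzh2 than in BRSST+sgLuc, by log2 -0.25 in the high and -0.23 in the low class.

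**Figure D3:**
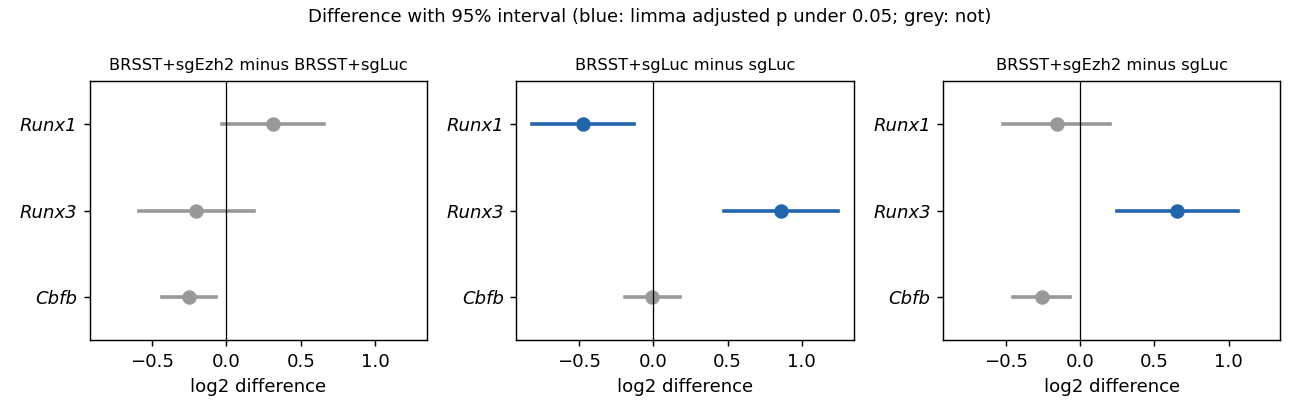
Log2 difference (horizontal axis) of Runx1, Runx3 and Cbfb in the 3 comparisons, with 95% intervals from limma, blue where the adjusted p was under 0.05. Runx1 and Runx3 stand on opposite sides of 0 in BRSST+sgLuc minus sgLuc, and the Cbfb intervals lie below 0 in both comparisons of BRSST+sgEzh2 without passing adjustment.

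Runx proteins act through coregulators: corepressors of the Tle and Cbfa2t families with histone deacetylases, and acetyltransferases such as Ep300, Crebbp and Kat6a. Of 25 such genes 20 were measured and 16 tested. Against sgLuc, 0 rose and 3 of the 16 fell in BRSST+sgLuc, where 10.8% of all tested genes rose and 11.7% fell. The median log2 difference of the list was -0.20, against 0.01 over all tested genes. Kat6a (MOZ), an acetyltransferase that binds Runx1 and whose human gene is a leukaemia fusion partner, was at 7.95, 7.83, 8.18, 7.98 and 8.45 on BRSST+sgLuc arrays 1 to 5, against 9.001, 8.87, 8.49 and 8.95 on sgLuc arrays 1 to 4. The groups did not overlap, as was so for 18.9% of tested genes, and Kat6a fell by 0.75 ± 0.15 on the log2 scale (SE, limma adjusted p = 0.00321). The deacetylase genes Hdac1 (log2 -0.52 ± 0.17, limma adjusted p = 0.0461) and Hdac3 (-0.37 ± 0.09, adjusted p = 0.0132) fell as well. Hdac1 passed in 2 of 13 fits with 1 array left out, those without BRSST+sgLuc array 1 or 3, and its log2 difference ran from -0.64 to -0.39 over all 13. With the Y-linked class as a block Hdac1 did not pass either (-0.45, adjusted p = 0.138). Over the 13 fits with 1 array left out, 2 to 6 coregulators fell in place of 3, with 6 in the fit without BRSST+sgLuc array 5.

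With the Ezh2 guide, 0 coregulators rose and 1 of 16 fell against sgLuc, where 5.51% of all tested genes rose and 3.86% fell. The list median there was log2 -0.16, against 0.02 over all tested genes. By limma 0 of 16 passed against BRSST+sgLuc (median 0.04), where 0.783% of all tested genes passed. The unadjusted p was under 0.05 for 1 coregulator and for 1472 of all 10601 tested genes. That coregulator was Kat6a, which differed by log2 0.44 ± 0.15 (limma adjusted p = 0.200). The 1 that fell against sgLuc was Ep300 (p300), a coactivator that acetylates histones and Runx1. It had log2 signals of 10.02, 9.97, 10.07 and 10.32 on BRSST+sgEzh2 arrays, against 10.80, 10.57, 10.54 and 10.60 on sgLuc arrays. Ep300 fell by 0.54 ± 0.13 (SE, limma adjusted p = 0.0200), with no overlap, as was so for 23.3% of tested genes. That call was lost without BRSST+sgEzh2 array 1 or 2 or sgLuc array 1, over a range of -0.61 to -0.48.

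Enzymes that phosphorylate, methylate, dephosphorylate or ubiquitinate Runx proteins formed a further list. Of 13 listed and 11 tested, 0 passed by limma in either comparison of BRSST+sgEzh2. Of all tested genes 0.783% passed there against BRSST+sgLuc and 9.37% against sgLuc. At an unadjusted p under 0.05, 1 was higher in each of them, Hipk2, a kinase that phosphorylates Runx1. Of all 10601 tested genes, 1025 were higher against BRSST+sgLuc and 1517 against sgLuc at that threshold. When BRSST+sgLuc was set against sgLuc, 1 of the 11 rose and 1 fell, where 10.8% of all tested genes rose and 11.7% fell. Pim1, a kinase that phosphorylates Runx proteins, rose by log2 0.64 ± 0.19 (SE, limma adjusted p = 0.0269), and Skp2, a ubiquitin ligase subunit that targets Runx1, fell by 0.50 ± 0.15 (adjusted p = 0.0298). The Pim1 call was lost without BRSST+sgLuc array 1 or 4 or sgLuc array 1, 2 or 3, within log2 0.53 to 0.72. The Skp2 call was lost without BRSST+sgLuc array 2 or 4 or any sgLuc array, within -0.64 to -0.42, and with the Y-linked class as a block (adjusted p = 0.0572).

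Among 16 transcription factors that work beside Runx1, of which 15 were tested, 0 rose and 5 fell in BRSST+sgLuc against sgLuc, with a list median of log2 -0.12. Over all tested genes 10.8% rose and 11.7% fell. Ets1, which binds DNA together with Runx1, averaged 7.80 ± 0.24 in BRSST+sgLuc (SD, n = 5) and 9.66 ± 0.18 in sgLuc (n = 4), and fell by 1.86 ± 0.21 (SE, limma adjusted p = 8.64e-05). The B lineage factors Pax5 (-2.99 ± 0.76, adjusted p = 0.0125) and Ebf1 (-2.87 ± 0.58, adjusted p = 0.00374) and the stem, mast cell and basophil factor Gata2 (7.56 ± 0.24 in BRSST+sgLuc and 8.56 ± 0.24 in sgLuc, SD, adjusted p = 0.0143) fell too, as did Erg. Ets1, Pax5, Ebf1 and Gata2 each passed in 13 of 13 fits with 1 array left out, and the Gata2 call was lost with the Y-linked class as a block (log2 -0.87, adjusted p = 0.0568). Pax5, Ebf1 and Gata2 also stand in a marker list of a cell type. In BRSST+sgEzh2 against sgLuc 0 rose and 1 fell (median -0.11), where 5.51% of all tested genes rose and 3.86% fell. Ets1 averaged 7.99 ± 0.55 in BRSST+sgEzh2 (n = 4) and fell by 1.67 ± 0.22 (adjusted p = 0.000384). Against BRSST+sgLuc 0 of 15 passed by limma (median 0.18, against 0.01 over all tested genes), where 0.783% of all tested genes passed. Of the 15, 3 had an unadjusted p under 0.05, all higher, and 1025 of all 10601 tested genes were higher at that threshold. The nearest to passing were Erg, an Ets factor of stem cells and megakaryocytes (0.53 ± 0.14, adjusted p = 0.104), and Lyl1, a stem cell factor (0.63 ± 0.18, adjusted p = 0.119). Without BRSST+sgLuc array 3 both passed, at 0.66 for Erg and 0.72 for Lyl1, and Lyl1 also passed without array 2 (0.74).

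Known myeloid and megakaryocyte targets of Runx1 made up another list. Of 20 listed, 15 were tested, and 1 rose and 1 fell in BRSST+sgLuc against sgLuc (median log2 0.14). Over all tested genes 10.8% rose and 11.7% fell in that comparison. By limma 0 of 15 passed in BRSST+sgEzh2 against BRSST+sgLuc, where 0.783% of all tested genes passed. An unadjusted p under 0.05 was found for 1 of the 15, Csf1r, and for 1472 of all 10601 tested genes. Csf1r, the receptor for macrophage colony-stimulating factor and a classical Runx1 target, had log2 signals of 9.76, 10.50, 10.46, 9.94 and 9.54 on BRSST+sgLuc arrays, against 10.85, 10.78, 10.92 and 10.91 on sgLuc arrays. It fell by 0.82 ± 0.19 (SE, limma adjusted p = 0.00842), with no overlap, as was so for 18.9% of tested genes. On the BRSST+sgEzh2 arrays Csf1r was at 10.89, 10.66, 10.69 and 11.27, and its difference from BRSST+sgLuc, 0.84 ± 0.19, did not pass (adjusted p = 0.0603). With 1 array left out it passed in 2 of 13 fits, those without BRSST+sgLuc array 2 (0.95) or 3 (0.94). A call was also gained with the Y-linked class as a block (0.86, limma adjusted p = 0.0389). Trended and robust variance (adjusted p = 0.0460) and array quality weights (0.00201) gave a call too. So did leaving out both BRSST+sgLuc arrays 2 and 5 (0.0479), a choice made after seeing the data. The other alternatives gave no call. Csf1r also stands in the monocyte and macrophage marker list, of which 4 of 9 tested genes fell in BRSST+sgLuc against sgLuc, against 11.7% of all tested genes. The mean log2 signal of that list was 9.71 to 10.56 in BRSST+sgEzh2, 8.77 to 9.95 in BRSST+sgLuc and 10.17 to 10.35 in sgLuc. The part of monocyte content in the Csf1r values was not tested.

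Gfi1, a transcriptional repressor needed for neutrophil development and a known Runx1 target, rose in both BRSST groups against sgLuc. Its log2 signal was 8.32, 8.27, 8.27 and 8.04 in BRSST+sgEzh2, 8.11, 8.05, 8.24, 8.27 and 8.29 in BRSST+sgLuc and 7.67, 7.78, 8.04 and 7.77 in sgLuc. The rise was 0.41 ± 0.11 in BRSST+sgEzh2 (SE, limma adjusted p = 0.0324) and 0.38 ± 0.10 in BRSST+sgLuc (adjusted p = 0.0195), each over the same sgLuc arrays, whose array 3 came close to both BRSST groups. The BRSST+sgLuc call was lost without sgLuc array 1, 2 or 4 (0.33 to 0.45 over 13 fits). The BRSST+sgEzh2 call was lost without those arrays or BRSST+sgEzh2 array 1, 2 or 3 (0.36 to 0.49).

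Known lymphoid targets of Runx factors, among them Il7r, Vpreb1 and Il2rb, were lower in BRSST+sgLuc than in sgLuc wherever they were tested. Of 22 listed, 18 were measured and 10 tested. The filter asks for a signal above the array median on 4 arrays, so a gene high in sgLuc alone passed it and had to differ. Cd8a, Eomes and Il7r met it only with the sgLuc arrays, and 8 measured targets were not tested. In BRSST+sgLuc against sgLuc 0 rose and 10 fell, among them the 7 that met the filter on the BRSST arrays alone, where 11.7% of all tested genes fell. Il7r, the interleukin-7 receptor chain of early lymphoid cells, was at 5.22, 6.92, 4.50, 5.34 and 4.71 on BRSST+sgLuc arrays, against 8.87, 8.94, 7.78 and 9.41 on sgLuc arrays, and fell by 3.41 ± 0.54 (SE, limma adjusted p = 0.000839). Vpreb1, a surrogate light chain of B precursors, fell by 3.96 ± 0.74 (adjusted p = 0.00234), and Il2rb, a receptor chain of natural killer and T cells, fell by 2.67 ± 0.64 (adjusted p = 0.00900). The count was 6 without BRSST+sgLuc array 1, sgLuc array 2 or sgLuc array 4, and 7 to 10 in the other fits with 1 array left out.

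In BRSST+sgEzh2 against sgLuc, 1 of the 10 tested lymphoid targets, Il7r, fell, where 3.86% of all tested genes fell. Il7r met the filter only with the sgLuc arrays, and of the 7 targets that met it on the BRSST arrays alone 0 fell. By limma 0 of the 10 passed against BRSST+sgLuc, where 0.783% of all tested genes passed. The count against sgLuc ran from 0 to 5 with 1 array left out, at 4 without BRSST+sgEzh2 array 2 and 5 without array 3, and it was 0 without BRSST+sgEzh2 array 1 or sgLuc array 1, 2 or 4, and 2 without BRSST+sgLuc array 2 or 5. At an unadjusted p under 0.05, 8 were lower against sgLuc and 4 higher against BRSST+sgLuc. Of all 10601 tested genes, 1058 were lower and 1025 higher in the same comparisons at that threshold. Il7r was at 4.88, 7.03, 7.23 and 6.98 on BRSST+sgEzh2 arrays and fell by 2.22 ± 0.56 against sgLuc (SE, limma adjusted p = 0.0249), a call lost without BRSST+sgEzh2 array 1 (-1.67) or sgLuc array 1, 2 or 4 (-2.18, -2.16 and -1.998). Vpreb1 spread from 7.21 to 11.67 in BRSST+sgEzh2, with array 2 within the sgLuc range of 9.92 to 11.87. Il2rb, nearest to the threshold against BRSST+sgLuc, differed by 1.74 ± 0.64 (adjusted p = 0.235), and without BRSST+sgEzh2 array 1 by 2.59, which passed.

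**Figure D4:**
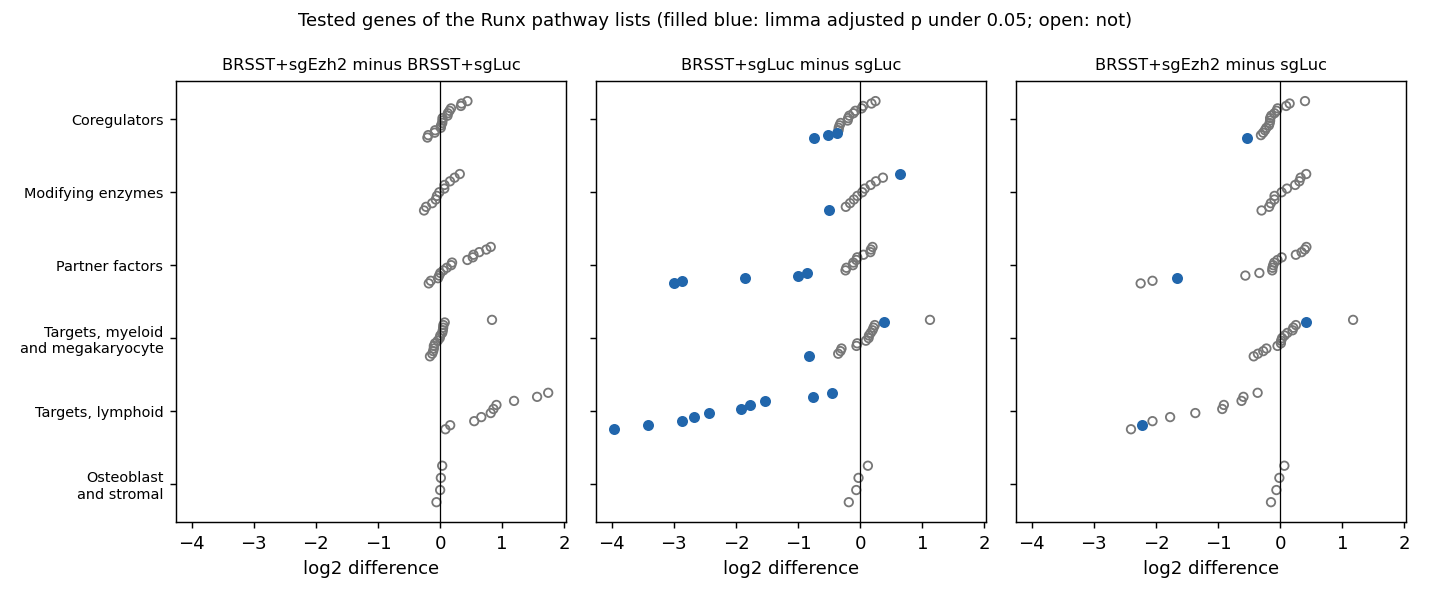
Log2 difference (horizontal axis) of each tested gene of the 6 Runx-related lists (rows) in the 3 comparisons (panels), filled blue where the limma adjusted p was under 0.05. Vpreb1 and Il7r, at -3.96 and -3.41, lie furthest below 0 in BRSST+sgLuc minus sgLuc, and no gene is filled in BRSST+sgEzh2 minus BRSST+sgLuc.

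Lymphoid cell markers fell too, in lists that hold 7 of the 10 tested targets (Vpreb1, Ebf1, Igll1, Cd79a, Cd8a, Il2rb and Eomes), so these counts and those of the targets are in large part of the same genes. In BRSST+sgLuc against sgLuc, 7 of 8 tested B lineage markers, 5 of 7 natural killer markers, 4 of 5 T cell markers and 7 of 8 plasmacytoid dendritic cell markers fell, against 11.7% of all tested genes. Of the basophil and mast cell markers 5 of 6 fell, among them Prss34, a basophil protease (log2 -4.76 ± 0.22, limma adjusted p = 3.54e-08), and Gata2. As with the targets, a marker high in sgLuc alone passed the filter and had to differ. Ccr9, Klk1 and Fcer1a peaked at 5.98, 7.11 and 6.88 in the BRSST groups, below every array median. They met the filter only with the sgLuc arrays, as did Cd3g, Cd8a, Cd8b1, Vpreb3, Eomes, Siglech and Spib of these lists. The same held for Cx3cr1 of the monocyte list. Cd3g, Cd8a and Cd8b1 make up most of the T cell markers that fell. The marker counts were not repeated without such genes, so they cannot be weighed against the share of all tested genes. Mean log2 signals of the B list were 7.23 to 9.31 in BRSST+sgEzh2, 7.07 to 8.93 in BRSST+sgLuc and 9.46 to 10.72 in sgLuc. Those of the T cell list were 6.37 to 8.25, 6.31 to 7.06 and 7.64 to 8.09 in the same groups, and those of the natural killer list 6.08 to 8.49, 6.29 to 8.51 and 8.33 to 9.22. For plasmacytoid dendritic cells they were 7.10 to 7.88, 6.80 to 8.09 and 8.80 to 9.49. Erythroid markers went the other way: 4 of 8 rose in BRSST+sgLuc against sgLuc, where 10.8% of all tested genes rose. Among them Rhag met the filter only with the BRSST arrays. The erythroid list means were 7.24 to 7.98, 8.01 to 8.98 and 7.19 to 7.73 in the 3 groups. The basophil and mast cell list had means of 7.15 to 7.85, 7.20 to 7.44 and 8.63 to 9.05. Runx3, in contrast to the markers of the T and natural killer cells it is known for, rose in this comparison. The part of cell composition in the Runx1, Runx3 and target values was not tested.

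Of 13 osteoblast and stromal genes, Runx2 targets included, 12 were measured and 4 tested. Bglap (osteocalcin), Bglap2, Col1a1 and Cxcl12 lay above the median on all 13 arrays, and the other 8 did not meet the filter. By limma 0 passed in any comparison, also at an unadjusted p under 0.05. Of all tested genes 22.5% passed adjustment in BRSST+sgLuc against sgLuc, 9.37% in BRSST+sgEzh2 against sgLuc and 0.783% in BRSST+sgEzh2 against BRSST+sgLuc. Bglap, the closest to the threshold in BRSST+sgLuc against sgLuc, differed by log2 -0.18 ± 0.12 (SE, limma adjusted p = 0.303). The marker list of osteoblasts and stroma had a mean log2 signal of 6.66 to 6.87 in BRSST+sgEzh2, 6.65 to 6.84 in BRSST+sgLuc and 6.60 to 6.97 in sgLuc, below the median of every array.

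Genes whose array-to-array pattern was most like a member's were found from deviations from the group means over 13 arrays. These values share the array, its RNA input and its scaling, and serve as a description. For Runx1 they were Mettl2 (Pearson 0.96), Slc36a4 (0.94), Cd93 (0.93), Rif1 (0.92) and Eml5 (0.92). For Runx3 they were Sgk1 (0.92), Ccdc115 (0.92), Ccno (0.89), Fbxl21 (0.88) and Ap3m2 (0.87). For Cbfb they were Acbd3 (0.89), Zfp985 (0.88), Zfp979 (0.88), Kmt2c (0.87) and Ankrd12 (0.85). The 3 sets had no gene in common, and none of the 15 is a member of the Runx family. By the same measure the mean of the coregulator list had a correlation of 0.86 with Runx1 and -0.17 with Runx3. That of the stem and progenitor marker list had 0.71 with Runx1 and -0.54 with Runx3. These were picked from all lists, and others gave values of like size. The Runx-modifying enzymes had 0.70 with Runx1, and the T cell markers 0.66 with Cbfb. The osteoblast and stromal genes had -0.57 with Runx1 and 0.57 with Runx3.

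**Figure D5:**
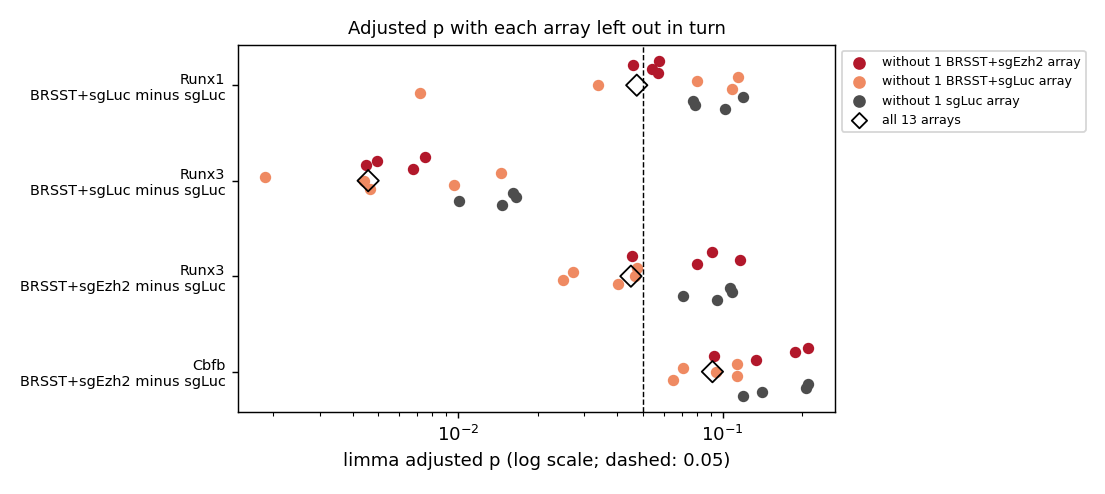
Limma adjusted p (horizontal log axis) of 4 member comparisons with all 13 arrays (diamonds) and with each array left out in turn (points coloured by the group of the array left out). All points of Runx3 in BRSST+sgLuc minus sgLuc lie under 0.05, the points of Runx1 in that comparison fall on both sides, and those of Cbfb all lie above.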

How the data were processed

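RNA of 13 bone marrow samples was amplified from 2 ng with 10 PCR cycles before in vitro transcription, per the labels' protocols, which can compress differences. The deposited values are log2 signals, and the submitters' processing notes name R 3.5.01 and the oligo package for making them. How background was corrected and arrays were normalized is not given there. Precision is limited by the number of arrays. Of 22203 rows, 19572 had 1 symbol, 0 several and 2631 none; for 55 genes with several rows the row of highest mean was used. Symbols were checked against RefSeq (GRCm38.p6), and 0 changed. Genes above the array median on at least 4 arrays were fitted with limma 3.58.1 in R 4.3.3 (lmFit, eBayes, all 13 arrays, no covariates), with Benjamini-Hochberg adjustment over 10601 genes and a threshold of 0.05. The procedure was tested on simulated data. Replicate numbers did not pair the samples (correlations of deviations -0.18 to 0.19).

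Named genes are the members, Ezh2, per list and comparison up to 4 genes past the threshold with the largest difference or else the 2 of smallest p, and the 5 genes most like each member. Not every gene so taken is described. Members, lists and motif were chosen with earlier results of these data known. Alternatives were other filters, scalings, variance models, blocks and thresholds, and each array left out.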

Additional observations from a re-analysis of the deposited data

How the results depend on the processing

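For Runx1 in BRSST+sgLuc minus sgLuc (log2 -0.47), the call was lost at an adjusted p threshold of 0.01 (0.0474), with no filter (-0.47, adjusted p 0.0654), with array medians set equal (-0.43, 0.0822) and with only the 2 groups compared (-0.47, 0.0722), and ran from -0.59 to -0.41 with 1 array left out. For Runx3 in BRSST+sgEzh2 minus sgLuc (0.66), it was lost at 0.01 (0.0450), with no filter (0.66, 0.0564), quantile normalization (0.63, 0.0569) and the replicate block (0.66, 0.0518), and ran from 0.55 to 0.75. For Cbfb in BRSST+sgEzh2 minus sgLuc, a call was gained with trended and robust variance (-0.26, 0.0471), array quality weights (-0.28, 0.00765) and without both BRSST+sgLuc arrays 2 and 5 (-0.26, 0.0442), a choice made after seeing the data. For Cbfb in BRSST+sgLuc minus sgLuc the sign changed with array medians set equal (0.0346) and over -0.0343 to 0.0129 with 1 array left out. Runx3 in BRSST+sgLuc minus sgLuc passed under every alternative run.

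Genes past the threshold in BRSST+sgEzh2 minus BRSST+sgLuc (83) numbered 18 at 0.01, 128 with no filter, 36 with a stricter filter, 55 with equal medians, 1039 with array weights, 28 with the replicate block, 170 with the Y-linked class as a block, 17 with only the 2 groups, 143 without arrays 2 and 5, and 22 to 377 with 1 array left out. In BRSST+sgLuc minus sgLuc (2389) they numbered 1102 at 0.01, 4879 with weights and 1481 to 2839 with 1 array left out. In BRSST+sgEzh2 minus sgLuc (993) they numbered 398 at 0.01, 2976 with weights, 1822 with only the 2 groups, 1739 without arrays 2 and 5 and 519 to 1344 with 1 array left out. The replicate block changed no other member's call. With it, the calls of Hdac1 (adjusted p 0.0827) and Skp2 (0.0665) in BRSST+sgLuc minus sgLuc were lost. The calls of the markers Klre1 (0.063), Cd8a (0.078) and Sox4 (0.061) in that comparison were lost as well. So was that of the monocyte marker Mpeg1 in BRSST+sgEzh2 minus BRSST+sgLuc (0.11). Bglap in BRSST+sgEzh2 minus BRSST+sgLuc changed sign with quantile normalization (-0.0518) and without BRSST+sgEzh2 array 1 (-0.0251 to 0.0683 over 13 fits), and Cxcl12 in BRSST+sgEzh2 minus sgLuc without sgLuc array 4 (-0.0176 to 0.185 over 13 fits). With Spearman in place of Pearson correlation, 2, 3 and 1 of the 5 genes most like Runx1, Runx3 and Cbfb were kept. The causes were not tested. Signals near the top or bottom of the array range limit what a difference can show.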

Other observations

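The Runx motif AACCACA was counted in the promoter windows of genes by call, as a description with no test. In BRSST+sgLuc against sgLuc, 73 of 1022 genes that fell and have a window held it (7.14%), against 43 of 938 that rose (4.58%) and 293 of 6715 that did not pass (4.36%). In BRSST+sgEzh2 against sgLuc the shares were 6.67% of genes that fell, 5.78% of those that rose and 4.57% of those that did not pass. In BRSST+sgEzh2 against BRSST+sgLuc, 1 of 52 genes that rose and 0 of 12 that fell held it, against 4.74% of those that did not pass.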
